A study of Mus musculus with 24 samples.

Results

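The Notch ligands, receptors and targets of the developing inner ear were described in RNA sequencing counts of the mouse otocyst epithelium, the wall of the vesicle that forms the inner ear. The genes were listed by name: the receptors Notch1 and Notch2, the ligands Dll1 and Jag1, the Notch-modifying enzyme Lfng, and the target or target-related genes Hes1, Hes5, Hes6, Hey1 and Hey2. Of these 10 genes, 9 had a row among the 15736 genes of the count table, and all 9 passed the filter on low counts in every comparison. Hes5 had no row and was not analysed here. Control pools (con) came from Rosa26rtTA/+ embryos, which carry the doxycycline-dependent activator rtTA at the broadly active Rosa26 locus. Experimental pools (R2b) came from Rosa26rtTA/+;Tg(tetO-s(dn)Fgfr2b)/+ embryos, which also carry a doxycycline-driven transgene for a soluble dominant-negative FGFR2b. This secreted receptor fragment binds the FGF ligands of FGFR2b and its driver does not limit it to the ear. All pregnant females, of both groups, were injected with doxycycline (1.5 mg/kg) and then fed chow that held 200 mg/kg of it. Of the 3 exposures, one began at embryonic stage E9.75 and lasted 12 hours (the 12-hour exposure, E9.75+12h in the plots). Another began at E9.25 and lasted 24 hours (the early 24-hour exposure, E9.25+24h), and the last ran for 24 hours from E10.25 (the late exposure, E10.25+24h). Otocysts were pooled by genotype within a litter. The libraries used here come from 3 litters for the 12-hour exposure and from 4 for either 24-hour exposure.

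Notch receptors are cut when a Delta or Jagged ligand on a neighbouring cell binds them, and the released intracellular domain joins the DNA-binding protein RBPJ to switch on repressors of the Hes and Hey families. In the otocyst, Dll1 on newly specified neuroblasts holds neighbouring cells back from a neuronal fate. Jag1 and the glycosyltransferase Lfng are grouped here as prosensory genes, after the territory from which sensory patches arise. FGF3 and FGF10 are ligands of FGFR2b in the otic region.

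The 22 libraries held 18.7 to 28.2 M counts each. The transgene was followed through Fgfr2 and Ighg1, since the trap is a receptor fragment joined to an antibody constant region. In both early exposures Fgfr2 was at 127 to 159 CPM (TMM-scaled counts per M counts) in con and 729 to 1917 in R2b, and Ighg1 stayed at or below 1.90 CPM in con and at or above 1001 in R2b. In the late exposure the labels of litter 1 went against the transgene reads: the library labelled con held 703 CPM of Ighg1 and the one labelled R2b held 56.3. Litter 3's library labelled con also held 206 CPM of Ighg1. Fitted effects on the Notch genes in that exposure are therefore given with and without litter 1. Levels, ranges and correlations include litter 1, and libraries are called by their labels. All 14 otic epithelial markers looked for were present, with a summed level of 2635 to 8740 CPM per library. The summed level was 15.8 to 302 CPM for 12 endothelial markers, 100.1 to 1404 CPM for 12 mesenchymal markers and 12.1 to 5022 CPM for 11 blood markers.

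Promoter windows are shown for 3 genes, because 2 of them, Lfng and Hey2, carry the RBPJ core motif TGGGAA and Jag1, the ligand called higher in both early exposures, does not. Each window runs from 250 bases before to 50 bases after a start site annotated by RefSeq on GRCm38.p6, and is printed 5′ to 3′ along the gene's strand. Capitals mark the motif, read on both strands, so that TTCCCA is its reverse complement.
Lfng, chr5:140607091-140607390, plus strand: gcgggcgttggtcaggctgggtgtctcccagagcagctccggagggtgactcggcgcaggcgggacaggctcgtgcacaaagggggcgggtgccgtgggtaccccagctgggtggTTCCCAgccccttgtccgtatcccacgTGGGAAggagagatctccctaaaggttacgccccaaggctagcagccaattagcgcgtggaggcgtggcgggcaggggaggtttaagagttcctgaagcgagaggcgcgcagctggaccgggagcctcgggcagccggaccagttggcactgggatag
Hey2, chr10:30842734-30843033, minus strand: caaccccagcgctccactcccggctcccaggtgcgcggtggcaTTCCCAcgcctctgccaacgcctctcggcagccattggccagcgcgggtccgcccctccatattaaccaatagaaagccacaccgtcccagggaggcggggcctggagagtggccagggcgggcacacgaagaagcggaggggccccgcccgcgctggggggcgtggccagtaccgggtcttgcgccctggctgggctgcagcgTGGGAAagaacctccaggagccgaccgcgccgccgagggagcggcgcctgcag
Jag1, chr2:137116471-137116770, minus strand: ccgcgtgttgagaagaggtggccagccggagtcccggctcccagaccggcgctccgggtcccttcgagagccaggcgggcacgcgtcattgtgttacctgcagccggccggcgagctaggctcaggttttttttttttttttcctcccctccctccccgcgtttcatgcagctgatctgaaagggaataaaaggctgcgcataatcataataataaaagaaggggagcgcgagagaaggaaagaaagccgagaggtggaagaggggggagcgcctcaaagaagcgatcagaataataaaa
The first bases of the matches lie at -135 and -108 in Lfng and at -207 and -3 in Hey2, with the start site counted as 0. RefSeq windows were found for 7 of the 9 genes, 9 windows in all, and the letters TGGGAA were not in those of Notch1, Notch2, Dll1, Jag1 and Hes6. For Hes1 and Hey1 there was no entry. The motif was in 25.6% of all 32851 windows of 300 bases in the RefSeq table. A longer form that contains it, CGTGGGAA, was in 0.734% of them, once in the Lfng window and at both positions in the Hey2 window. A match of letters is a description of the window and not a binding site.

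Levels per kb of exon compared the genes within con libraries. Lfng was highest in the 12-hour exposure, at 62.5 ± 18.7 CPM per kb (SD, n = 3), and in the early 24-hour exposure, at 71.4 ± 29.9 CPM per kb (SD, n = 4). Hes6, Jag1 and Hey1 followed in that order in both early exposures, at 30.7 to 50.2 CPM per kb on average. Notch1 came next, then Notch2, Hes1 and Hey2, and Dll1 was lowest, at 4.01 ± 0.961 (SD, n = 3) and 5.25 ± 2.04 CPM per kb (SD, n = 4). In that order the con ranges of Hes6 and Jag1 overlapped in both exposures, those of Jag1 and Hey1 in the 12-hour exposure only, and those of Lfng and Hes6 and of Hey2 and Dll1 in the early 24-hour exposure only. All other neighbours were apart. In the libraries labelled con in the late exposure Lfng came after 3 other genes, at 23.1 ± 5.87 CPM per kb (SD, n = 4), namely Hes6, Hey1 and Jag1. The ranges of all neighbours from Hes6 down to Notch2 overlapped there. The library titles of an exposure share a leading number that no other exposure has, and the titles do not say what it stands for. Stage and whatever goes with that number cannot be told apart when levels are set across exposures.

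After 12 hours of the trap, 5 of the 9 Notch genes rose and 1 fell. Lfng rose 1.78-fold, Notch1 1.52-fold, Hey2 1.47-fold, Jag1 1.38-fold and Notch2 1.36-fold, while Hes1 fell to 0.757 of its con level. A gene is named as having risen or fallen when its adjusted p (false discovery rate, FDR) was under 0.05 in edgeR's quasi-likelihood test over all genes. Of all 14882 genes tested in the 12-hour exposure, 20.0% were called, 1518 higher and 1455 lower. The median log2 fold change of the 9 genes was 0.47, against 0.011 for all genes. After 24 hours from E9.25, 3 of the 9 rose and none fell: Jag1 1.57-fold, Notch2 1.19-fold and Notch1 1.15-fold. The background there was 15.6% of 14979 genes, 1362 higher and 973 lower, and the medians were 0.20 for the 9 genes and -0.010 for all genes. With the litter as a block, which compares each R2b pool with the con pool of its own litter, 5 of the 9 were called higher in the early 24-hour exposure against a background of 40.6% called, 3071 higher and 3015 lower, the other two being Lfng and Hey2. The block left 5 called in the 12-hour exposure, where the background was 11.9%, with Hes1 no longer called. In both exposures these are bulk pools, in which fewer cells of a type and less RNA per cell cannot be told apart.

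**Figure D1:**
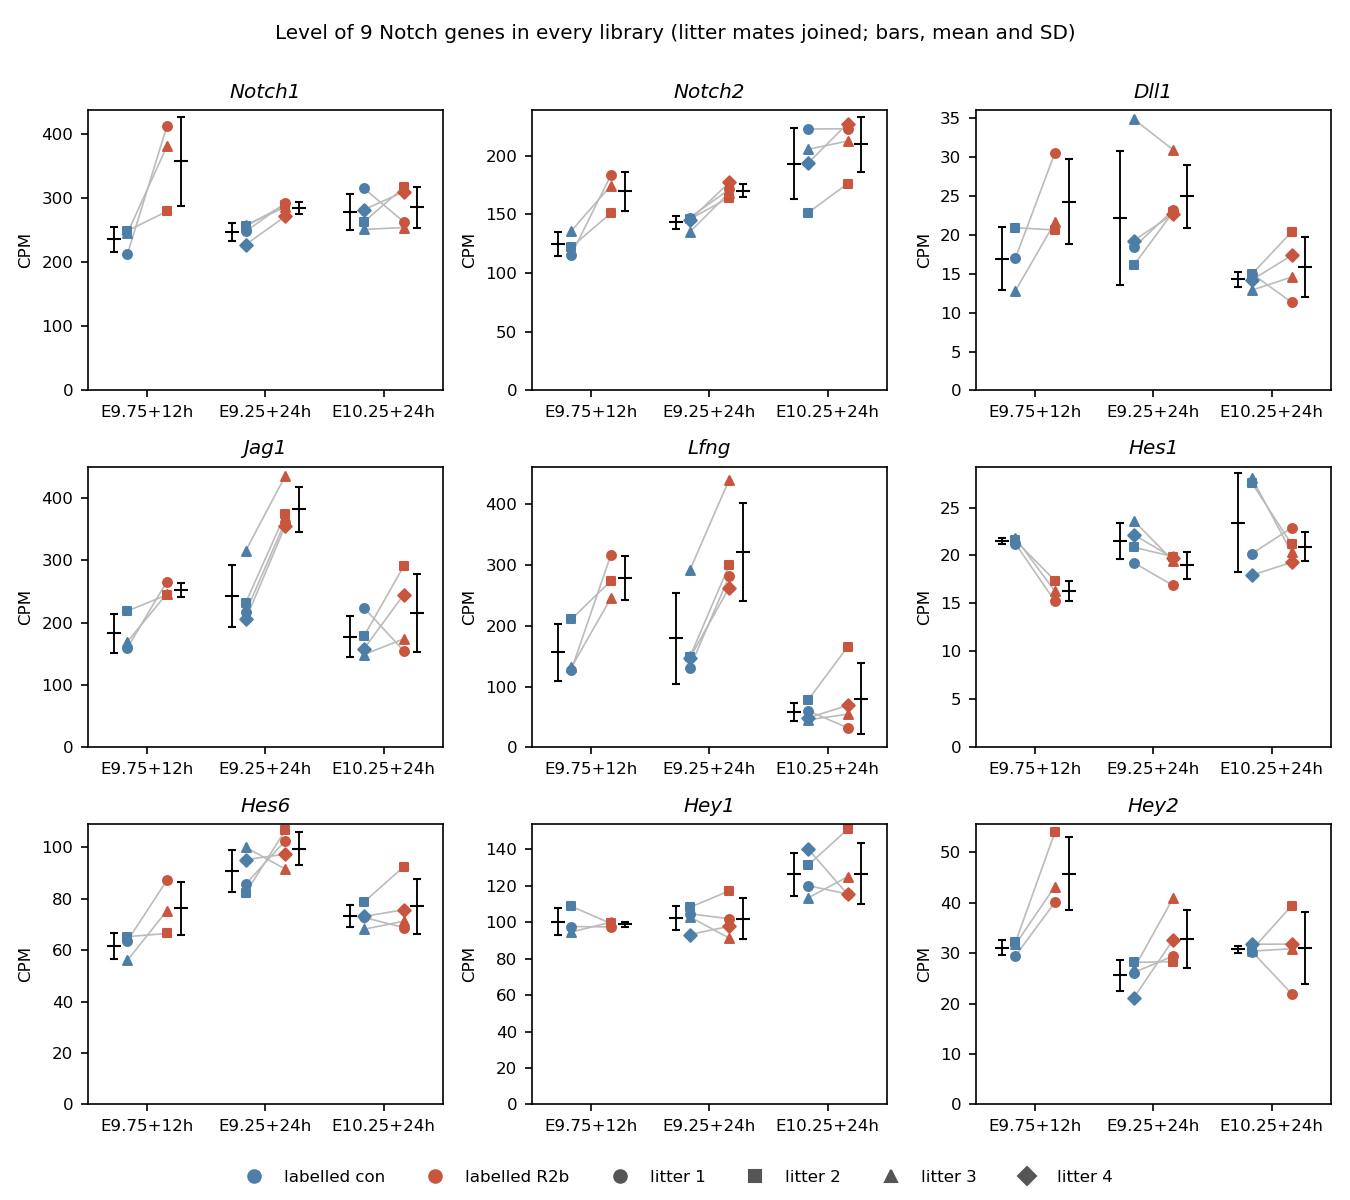
Each panel plots 1 gene, with the 3 exposures on the horizontal axis and TMM-scaled CPM on a vertical axis that starts at 0. Blue points are libraries labelled con and red points libraries labelled R2b, grey lines join the pools of a litter, marker shapes give the litter, and black bars are the mean and SD of each group. Lfng and Jag1 lines slope up in every litter of the first 2 exposures, Hes1 lines slope down there, and the litter 1 line (circles) of Lfng and Jag1 slopes down in the late exposure.

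Both receptors rose in both early exposures. In the 12-hour exposure Notch1, at chr2:26457903-26516663 on GRCm38, was at 213, 249 and 246 CPM in con litters 1 to 3 and at 413, 280 and 381 CPM in R2b. Every R2b pool was above every con pool, and litter 2 had the smallest difference. Fitted on the log2 scale, the change was 0.60 (SE 0.14, FDR 0.0118). Notch2, at chr3:98013527-98150361, was at 116, 122 and 136 CPM in con and at 183, 151 and 175 CPM in R2b. Its groups did not overlap either (log2 fold change 0.44, SE 0.10, FDR 0.0137).

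Receptor levels varied little between litters in the early 24-hour exposure. Notch1 was at 248, 256, 258 and 228 CPM in con litters 1 to 4 and at 292, 290, 286 and 272 CPM in R2b (log2 fold change 0.20, SE 0.050, FDR 0.0285). Notch2 was at 147, 146, 135 and 145 CPM in con and at 171, 164, 169 and 177 CPM in R2b (log2 fold change 0.25, SE 0.044, FDR 0.00948). For both receptors all 4 R2b pools were above all 4 con pools.

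Of the ligands, Jag1 rose in both early exposures and Dll1 passed the test in neither. In the 12-hour exposure Jag1, at chr2:137081456-137116644, was at 160, 219 and 169 CPM in con litters 1 to 3 and at 266, 244 and 246 CPM in R2b. The con pool of litter 2 was the highest con pool but was still below all R2b pools. This gave a log2 difference of 0.47 (SE 0.12, FDR 0.0203). With the early 24-hour exposure Jag1 was at 217, 232, 315 and 205 CPM in con and at 362, 374, 435 and 355 CPM in R2b. Litter 3 was the highest litter in both pools, and the groups did not overlap. Its log2 fold change was 0.65 (SE 0.13, FDR 0.0146), and the single litters gave 0.46 to 0.79.

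Dll1, at chr17:15367354-15376872, was at 17.0, 20.9 and 12.8 CPM in con litters 1 to 3 in the 12-hour exposure and at 30.5, 20.6 and 21.6 CPM in R2b. It was higher in R2b in litters 1 and 3 and level in litter 2, so that the groups overlapped. A log2 fold change of 0.52 (SE 0.20) did not pass the test (FDR 0.0891). With the early 24-hour exposure Dll1 was at 18.4, 16.1, 34.9 and 19.3 CPM in con and at 23.2, 23.0, 30.9 and 22.7 CPM in R2b. Litter 3 stood above the other litters in both pools and was the 1 litter in which R2b was lower. Dll1 did not pass the test (log2 fold change 0.17, SE 0.23, FDR 0.658), and its value was 0.36 (FDR 0.0113) with the block and without litter 3.

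Lfng, at chr5:140607320-140615545, encodes the Fringe enzyme that adds sugars to Notch receptors and so changes which ligands they answer to. In the 12-hour exposure it was at 128, 211 and 132 CPM in con litters 1 to 3 and at 316, 274 and 245 CPM in R2b. All R2b pools were above all con pools, and litter 2 again had the smallest difference. Lfng had a log2 fold change of 0.83 (SE 0.18) and an FDR of 0.00852. After the early 24-hour exposure Lfng was at 130, 148, 291 and 147 CPM in con and at 281, 299, 440 and 263 CPM in R2b. The con pool of litter 3 lay above the R2b pools of litters 1 and 4, although R2b was higher than con within each litter. Its log2 fold change of 0.84 (SE 0.27) did not pass without the block (FDR 0.0635), whereas with the block it was 0.89 (FDR 1.07e-05). Without litter 3 and without the block it was 0.99 (FDR 0.00244).

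Among the target genes, Hes1 fell and Hey2 rose after 12 hours, and no change of Hey1 was detectable. Hes1, at chr16:30064384-30067796, encodes a repressor that Notch switches on in many tissues. In the 12-hour exposure it was at 21.2, 21.6 and 21.8 CPM in con litters 1 to 3 and at 15.2, 17.4 and 16.3 CPM in R2b, so that all R2b pools were below all con pools. On the log2 scale the difference was -0.40 (SE 0.13, FDR 0.0459), and with the litter block the FDR was 0.114. Hes1 in the early 24-hour exposure was at 19.2, 20.9, 23.6 and 22.2 CPM in con and at 16.9, 19.9, 19.4 and 19.7 CPM in R2b. It was lower in R2b in each litter, but the groups overlapped and the log2 fold change of -0.18 (SE 0.090) was not called (FDR 0.210).

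Hey2, at chr10:30832359-30842801, encodes a related repressor. It was at 29.4, 32.1 and 31.7 CPM in con and at 40.1, 53.9 and 43.2 CPM in R2b in the 12-hour exposure, with no overlap (log2 fold change 0.56, SE 0.13, FDR 0.0127). Its levels in the early 24-hour exposure were 26.1, 28.2, 26.9 and 21.1 CPM in con and 29.4, 28.3, 40.9 and 32.7 CPM in R2b. The groups lay next to each other without overlap, litter 2 differing by the least. The value was 0.36 (SE 0.13) on the log2 scale, not called without the block (FDR 0.0983) and called with it (0.36, FDR 0.0174).

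Hey1, at chr3:8663359-8667256, ranged over 94.6 to 109 CPM in con and 97.4 to 100.1 CPM in R2b in the 12-hour exposure. Its log2 fold changes were -0.020 (SE 0.093, FDR 0.903) there and -0.0030 (SE 0.080, FDR 0.985) in the early 24-hour exposure. Hes6, at chr1:91411483-91414038, encodes a Hes-related protein that opposes Hes1 and is turned on by proneural factors. It ranged over 56.0 to 65.3 CPM in con and 66.5 to 87.1 CPM in R2b in the 12-hour exposure (log2 fold change 0.31, SE 0.12, FDR 0.0909), and its log2 fold change in the early 24-hour exposure was 0.13 (SE 0.073, FDR 0.252).

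**Figure D2:**
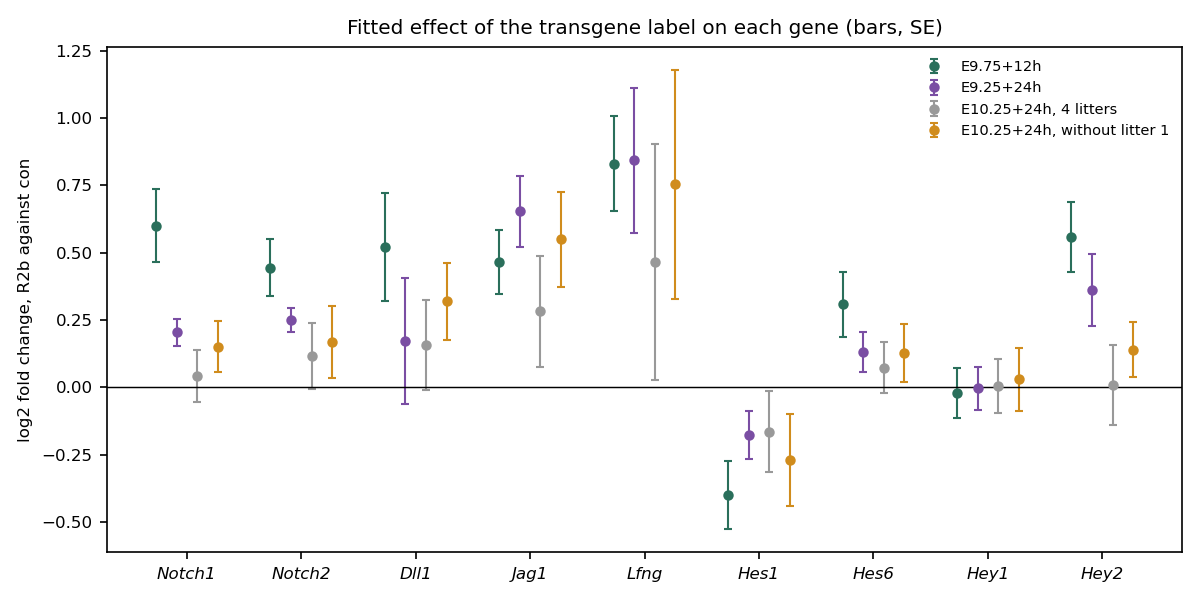
Log2 fold changes of R2b against con (vertical axis) for the 9 genes (horizontal axis), with SE as bars. Green is the 12-hour exposure, purple the early 24-hour exposure, grey all litters of the late exposure and orange the same exposure without litter 1. Lfng, Jag1 and both receptors lie above 0 in the first 2 exposures, Hes1 lies below 0, and Hey1 lies at 0 throughout.

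Counted by ranges, 6 of the 9 genes were higher in all R2b than in all con pools in the 12-hour exposure and 1 was lower, against 38.9% of all genes in either direction (2952 higher, 2832 lower). After the early 24-hour exposure 4 were higher and 0 lower, against 22.4% (1830 higher, 1529 lower). The calls in the 12-hour exposure rested on litter 1: without it 0 of 9 were called, where 2.92% of all genes were, although 7 of the 9 log2 fold changes stayed above 0 and their median was 0.33. Leaving out only the con pool of litter 1 also gave 0 of 9 (10.8% of all genes), and leaving out only its R2b pool gave 2 of 9 (8.37%). Without litter 2, 8 of 9 were called, Dll1 and Hes6 included, against 27.1% of all genes. In the early 24-hour exposure, leaving out litter 1 or litter 2 also left 0 called in the fit without the block (2.15% and 3.06% of all genes). With the block 5 or 6 were called without any 1 litter, in fits that called 29.6% to 41.2% of all genes. With all libraries in one fit, Jag1 (FDR 0.103) and Lfng (FDR 0.151) lost their calls in the 12-hour exposure. Notch1 (FDR 0.197) and Notch2 (FDR 0.0978) lost theirs in the early 24-hour exposure. That fit called 4560 of 15688 genes for the 12-hour effect and 2082 of 15688 for the early 24-hour effect.

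Single libraries decided several calls of the 12-hour exposure. The con pool of litter 1 was needed for Notch1 (FDR 0.0655 without it), Notch2 (0.0708), Jag1 (0.0982), Hey2 (0.0617) and Hes1 (0.102), and Lfng, at the threshold, was not called without it (log2 fold change 0.70). The R2b pool of litter 1 was needed for Notch1 (0.0617), Notch2 (0.0734), Jag1 (0.0869) and Hes1 (0.175). Notch2 also lost its call without con litter 2 (0.0571) and Jag1 without con litter 3 (0.0721), while Hes1 kept its call without R2b litter 2 and lost it without any other library (0.0902 to 0.175). Hes6 was called without R2b litter 2 (0.0198), in a fit that called 4583 of 15037 genes. Fits without con litter 2, con litter 3 and R2b litter 3 called 1545, 2372 and 1860 genes, against 2973 with all libraries. In the other early exposure Jag1 and Notch2 kept their calls without any single library. Notch1 lost its call there without con litter 1 (0.0614) or R2b litter 1 (0.0893), 2 (0.0843) or 3 (0.0588), and Lfng gained one without con litter 3 (0.00865). Those fits called, in that order, 1609, 816, 934, 1804 and 1394 genes, against 2335 with all libraries.

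Across the 12-hour exposure the summed level of 14 neuroblast markers was 347 to 420 CPM in con and 554 to 610 CPM in R2b, without overlap. Of these markers 7 were called, all higher, among them Tubb3 and Eya2, with log2 fold changes of 1.02 and 0.99, and the neurogenic factor Neurog1, with 0.78. Without litter 1, 3 of the 14 were called, beside 2.92% of all genes (20.0% with all litters). For the early 24-hour exposure the same sum was 290, 258, 291 and 575 CPM in con litters 1 to 4. In R2b it was 313, 303, 273 and 327 CPM. Without the block 0 of the 14 passed the test in edgeR, beside 15.6% of all genes, and their median log2 fold change was -0.17. With the block 3 of the 14 were called, 1 higher and 2 lower, beside 40.6% of all genes. The summed level of the 6 hindbrain markers in the table, of 13 listed, did not overlap in either exposure: 216 to 246 CPM in con against 394 to 441 CPM in R2b in the 12-hour exposure, and 143 to 168 CPM against 277 to 293 CPM in the early 24-hour exposure. Of them 2 of 6 tested were called in the 12-hour exposure (20.0% of all genes) and 2 of 5 tested in the early 24-hour exposure (15.6%), all higher. The part of neuroblast or hindbrain RNA in the Notch results was not tested. No neuroblast or hindbrain marker in the table was at 0 in all libraries. Litter 4 of the early 24-hour exposure was highest in both pools for endothelial, blood and mesenchymal markers and litter 3 lowest. Jag1, Notch2 and Notch1 remained called without litter 4, in a fit that called 2127 of 14947 genes. Without litter 3 Jag1 and Notch2 remained called, in a fit that called 1117 of 15060 genes. The part of endothelial, blood or mesenchymal RNA in the Notch results was not tested. Of 9 prosensory genes other than Jag1 and Lfng, 0 were called in the 12-hour exposure and 1 in the early 24-hour exposure, Fgf20, a ligand of the prosensory domain (log2 fold change 1.02, SE 0.21, FDR 0.0169), beside the 20.0% and 15.6% of all genes. With the block 0 and 6 of the 9 were called, 5 of the 6 higher, beside 11.9% and 40.6%, and without litter 1 as well 3 were called in the early 24-hour exposure (31.5%).

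All 12 genes listed as readouts of FGF signalling fell in both early exposures (20.0% and 15.6% of all genes called). Without litter 1, 8 of the 12 were called in each (2.92% and 2.15%). With the block 11 were called in the 12-hour exposure, 7 without litter 1 as well (1.79% of all genes), and 12 in the early 24-hour exposure with or without litter 1. In the late exposure 0 of the 12 were called by label without the block, with or without litter 1 (0.00% of all genes). Their median log2 fold change was -0.37 with litter 1 and -0.91 without it. With the block and without litter 1, 11 of the 12 were called there, all lower (4.04% of all genes).

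Otic epithelial markers also moved with the groups. Their summed level in the 12-hour exposure was 4364 to 4661 CPM in con and 4974 to 5906 CPM in R2b, without overlap. Of the 14 markers 6 rose, among them the otic transcription factors Pax2 and Lmx1a, and the epithelial adhesion gene Epcam fell (20.0% of all genes called). In the early 24-hour exposure the sum was 2635 to 4175 CPM in con and 3755 to 5861 CPM in R2b. These ranges overlapped, but the sum was higher in R2b in each of the 4 litters. There 3 of the 14 rose and 3 fell (15.6% of all genes called). Without litter 1, 0 and 1 of the 14 were called in these exposures (2.92% and 2.15% of all genes). With the block 6 and 10 of the 14 were called (11.9% and 40.6%), Epcam not among the 6. The part of otic epithelial RNA in the Notch results was not tested.

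The prosensory genes were set against the neurogenic ones as log2 ratios of CPM within a library. This grouping went by gene name and does not separate the genes cleanly. Over the 22 libraries Lfng also ran with the neurogenic factor Neurog1 (Pearson's r 0.917) and with Dll1 (0.843). Ratios over Hes5 were not computed. Jag1 over Dll1 in the early 24-hour exposure was 3.55, 3.84, 3.17 and 3.41 in con litters 1 to 4 and 3.96, 4.02, 3.81 and 3.96 in R2b. The ratio was higher in R2b in each of the 4 litters, by 0.44 ± 0.20 (SD, n = 4 litters). Lfng over Dll1 was 2.82, 3.19, 3.06 and 2.92 in con and 3.59, 3.70, 3.83 and 3.53 in R2b. It too was higher in each litter, by 0.66 ± 0.13 (SD, n = 4), with no overlap of the groups. Jag1 over Hes6 was higher in each litter by 0.54 ± 0.19 (SD, n = 4).

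After the 12-hour exposure the picture was mixed. Jag1 over Dll1 was 3.22, 3.38 and 3.71 in con litters 1 to 3 and 3.12, 3.56 and 3.51 in R2b. It was higher in R2b in 1 of 3 litters, and the mean litter difference was -0.046 ± 0.20 (SD, n = 3). Lfng over Dll1 was higher in R2b in each of the 3 litters, by 0.34 ± 0.17 (SD, n = 3), and Jag1 over Hes6 likewise, by 0.18 ± 0.091 (SD, n = 3). In the late exposure the litter differences with litter 1 included were 0.13 ± 0.21 for Jag1 over Dll1, 0.11 ± 0.47 for Lfng over Dll1 and 0.19 ± 0.46 for Jag1 over Hes6 (SD, n = 4). Each ratio was higher under the label R2b in litters 2 to 4 and lower in litter 1. In litters 2 to 4 Jag1 over Dll1 was higher by 0.26, 0.0495 and 0.34. Lfng over Dll1 was higher there by 0.64, 0.086 and 0.22, and Jag1 over Hes6 by 0.47, 0.16 and 0.57. These ratios were chosen with earlier results known and have no p-value.

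**Figure D3:**
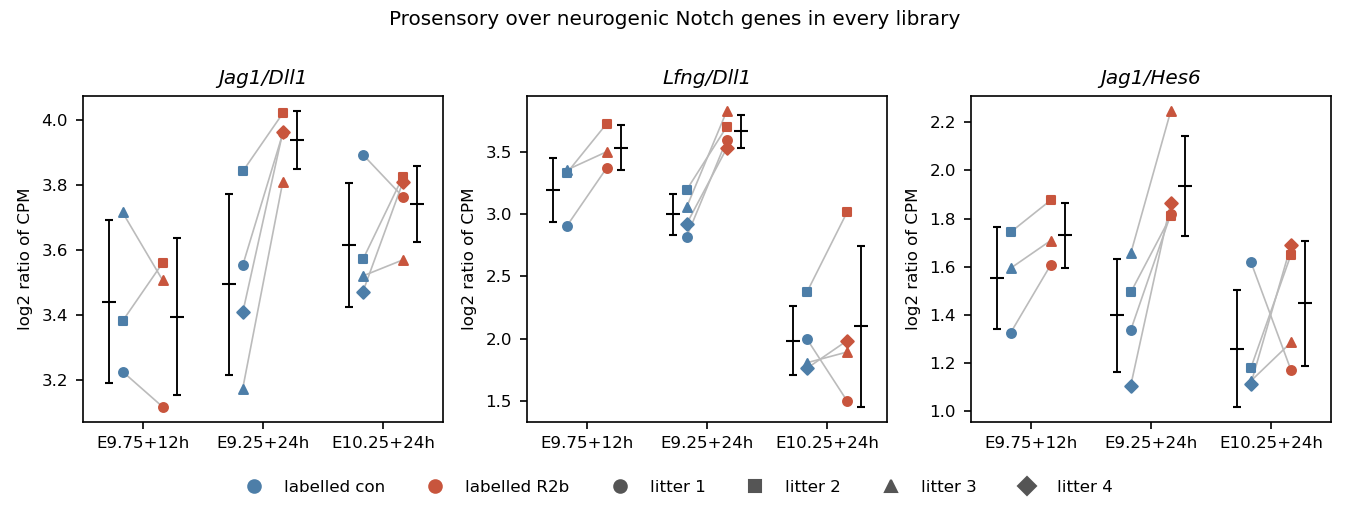
Log2 ratio of CPM in every library (vertical axis) for Jag1 over Dll1, Lfng over Dll1 and Jag1 over Hes6, by exposure (horizontal axis). Colours, shapes, grey litter lines and black mean and SD bars are as in the plot of levels. The R2b pool is above the con pool in each of the 4 litters in the early 24-hour exposure for all 3 ratios, while Jag1 over Dll1 is higher in 1 of 3 litters in the 12-hour exposure.

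No Notch gene was called in the late exposure, and neither was any other gene (0 of 9, 0.00% of 15203 genes tested in edgeR). DESeq2 also gave 0, and 175 genes had an unadjusted p under 0.05 in edgeR. From litter 1 to litter 4, Jag1 measured 224, 179, 149 and 158 CPM under the label con, and 155, 290, 174 and 244 CPM under the label R2b. Litter 1, whose transgene reads go against its labels, was lower in the library labelled R2b, and litters 2 to 4 were higher in it. Lfng measured 60.2, 77.9, 45.4 and 48.5 CPM under con, and 32.3, 165, 54.4 and 68.9 CPM under R2b. No range of the 9 genes was apart between the labels, against 0.914% of all genes. Lfng had the same litter pattern as Jag1, and litter 2 labelled R2b was the highest.

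Over all 4 litters the log2 fold changes of Jag1 and Lfng by label were 0.28 (SE 0.21) and 0.47 (SE 0.44). Without litter 1 they were 0.55 (SE 0.18, FDR 0.217) and 0.75 (SE 0.42, FDR 0.444), and 0 of 9 genes were called (0.00% of all genes). With the block and without litter 1, Jag1 was called (log2 fold change 0.52, SE 0.092, FDR 0.0382) and Lfng was not (0.63, SE 0.14, FDR 0.0639), 1 of 9 genes against 4.04% of all genes. Leaving out litter 3 as well, which was chosen after the data were seen, left 2 litters: with the block Jag1 was at 0.67 (FDR 0.00827) and Lfng at 0.82 (FDR 0.0325), 2 of 9 against 5.77%.

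The other 7 genes ranged in the late exposure over log2 fold changes by label of -0.16 for Hes1 (SE 0.15) to 0.16 for Dll1 (SE 0.17). Without litter 1 those of Notch1 and Notch2 were 0.15 (SE 0.095) and 0.17 (SE 0.13), that of Dll1 0.32 (SE 0.14) and that of Hes1 -0.27 (SE 0.17). Those of Hey2, Hes6 and Hey1 were then 0.14 (SE 0.10), 0.13 (SE 0.11) and 0.029 (SE 0.12). None of these was called in any alternative tried. Blood markers summed to 5022 CPM in litter 3 labelled R2b, where the median of that group was 536 CPM, and neuroblast markers to 739 CPM in litter 4 labelled R2b, where it was 313 CPM. The part of these cells in the values was not tested.

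The effects of the exposures were compared with each other as a contrast over all 22 libraries. No Notch gene passed the test for a difference between the early 24-hour and the 12-hour effect, or between the late and the early 24-hour effect, and edgeR called 0.00% of the 15688 genes in each contrast. At an unadjusted p under 0.05 there were 1908 and 1344 genes, and DESeq2 called 76 and 74. The late effect here includes litter 1. Without that litter no Notch gene was called in the second contrast either, in fits that called 0 and 3 of 15671 genes (without and with the block). The difference with the lowest FDR among the 9 genes was that of Notch1, whose effect was 0.60 after 12 hours and 0.20 after 24 hours: -0.38 (SE 0.15, FDR 0.334). It was called without litter 2 of the 12-hour exposure, without and with the block (lowest FDR 0.0199). Those fits called many other genes too, 1062 and 1899 of 15718. For Jag1 the difference between 24 and 12 hours was 0.21 (SE 0.26), for Lfng 0.031 (SE 0.54) and for Hes1 0.24 (SE 0.18). An interval of 2 SE around each of these 3 differences includes 0.

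Other genes of the pathway were taken from a list of 50, of which 46 were in the table. After the 12-hour exposure 5 of 46 rose and 1 fell, beside the 20.0% of all genes, with a median log2 fold change of 0.098. The early 24-hour exposure gave 2 higher and 2 lower (15.6% of all genes), with a median of -0.016, and with the block 6 higher and 8 lower (40.6%). Of 45 tested in the late exposure 0 were called. The gene with the lowest FDR in both early exposures was Heyl, a target of the same Hey family. Heyl was, in the 12-hour exposure, at 46.7, 41.5 and 57.5 CPM in con litters 1 to 3 and at 129, 157 and 103 CPM in R2b (log2 fold change 1.42, SE 0.16, FDR 5.57e-04). After the early 24-hour exposure it was at 34.1, 37.4, 34.5 and 46.9 CPM in con and at 79.5, 84.5, 62.9 and 77.3 CPM in R2b (log2 fold change 0.99, SE 0.12, FDR 0.00209). The groups were apart in both exposures, and Heyl was called in all 18 alternatives of the first and all 22 of the second. Without the block it was the 1 gene of the 46 called without litter 1 in either exposure, against 2.92% and 2.15% of all genes. With the block and without litter 1 it was again 1 of 46 in the 12-hour exposure, and 9 of 46 were called in the early 24-hour exposure, 3 higher and 6 lower, against 31.5% of all genes. Heyl was called in the late exposure with the block and without litter 1 (log2 fold change 1.04, FDR 0.0208).

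By role, 1 of 7 further ligands and receptors rose in both early exposures, the non-canonical ligand Dlk1, with log2 fold changes of 0.79 (FDR 0.0128) and 0.94 (FDR 0.0401). Beside each count here, 20.0% of all genes were called in the 12-hour exposure, 15.6% in the early 24-hour and 0.00% in the late. Of the 8 genes of the cleavage enzymes none was called without the block in any exposure, and their log2 fold changes in the 12-hour exposure lay between -0.30 and 0.27. Among 13 genes of endocytosis and turnover, Numbl, a relative of the Notch antagonist Numb, and Neurl1a, a ubiquitin ligase for ligands, rose in the 12-hour exposure by 0.86 and 0.93, and Dtx3l fell by 0.53 in the early 24-hour exposure. Among 12 genes of the nuclear complex, Snw1 fell by 0.33 in the 12-hour exposure, and the co-activator Maml3 fell by 0.24 in the early 24-hour exposure. Of 4 glycosyltransferases Mfng, the Fringe most like Lfng in name, rose by 0.48 in the 12-hour exposure. Mfng and Snw1 are outside the rule for naming genes and were chosen after their values were seen. Mfng and Snw1 were not called with the litter block.

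**Figure D4:**
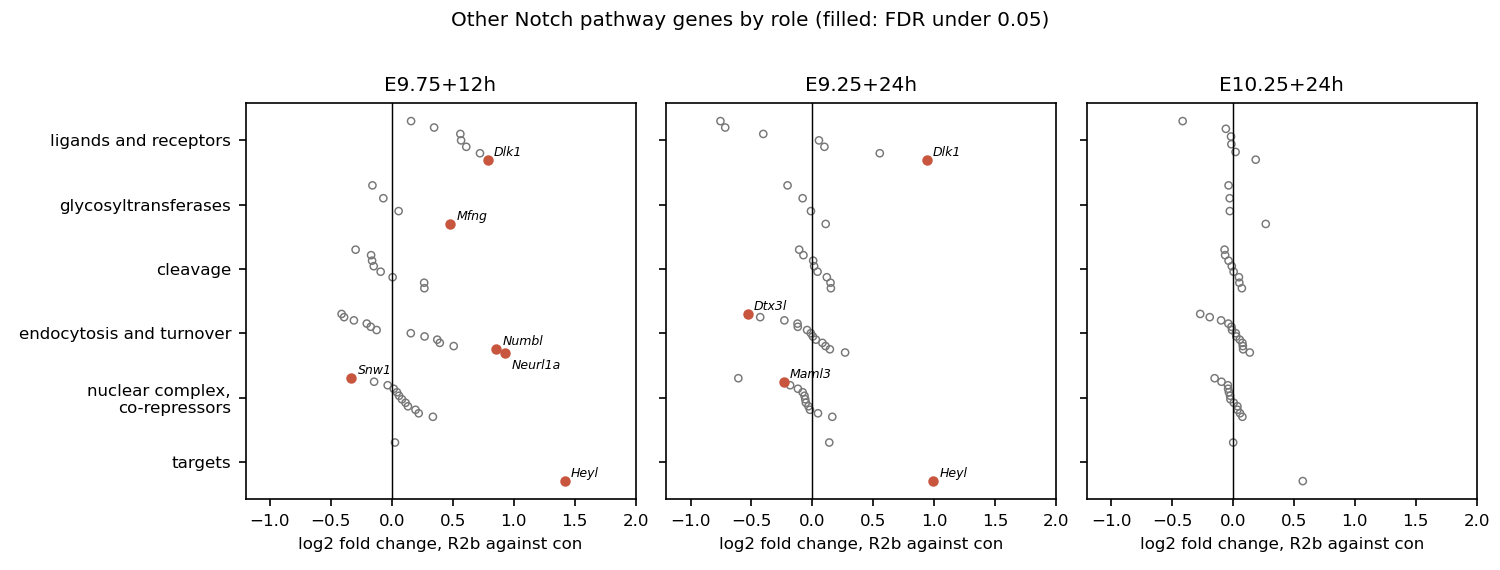
Log2 fold change of R2b against con (horizontal axis) for the other Notch pathway genes tested, in rows by role, with 1 panel for each exposure. Filled red points with names had an FDR under 0.05 and open points did not. Heyl and Dlk1 are filled on the right in both early exposures, and no point is filled in the late exposure.

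Genes whose levels ran most like each Notch gene were sought over the 22 libraries, after the mean of each exposure was subtracted, among 12686 genes. These correlations share libraries, litters and the group difference itself. Jag1 ran most like Fgf3 (Pearson's r 0.945), Fgf15 (0.937) and Pkdcc (0.934). Lfng ran most like Mylk (0.944), Neurog1 (0.917) and Jag1 (0.916). For Dll1 they were Hsd17b14 (0.845), Lfng (0.843) and Fgf3 (0.831). The receptors had other partners: Arhgef10l, Wdtc1 and Wdr6 for Notch1 (0.933 to 0.929), and Kif1a, Rgma and Camk1g for Notch2 (0.903 to 0.887). Hes1 had Rpl7a, Mrpl19 and Mipep (0.847 to 0.835), Hes6 had Sec31b, Prdm12 and Tmem82 (0.826 to 0.798), and Hey2 had Srxn1, Dsc2 and Rbpms (0.856 to 0.846). Hey1 had the loosest partners, Tmem129, Tnni1 and Tnfrsf12a (0.726 to 0.655). Between the 9 Notch genes themselves, Jag1 and Lfng had the highest r, 0.916, and Notch1 and Hes1 the lowest, -0.70.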

How the data were processed

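The deposited table holds the authors' raw read counts per Ensembl gene, as whole numbers; the lowest total of a gene was 100 over the columns used. Per the labels' protocols, otocyst epithelia were pooled by genotype within each female, and libraries were oligo(dT)-selected and stranded. Novoalign 2.08.03 and build mm10 are named in the submitters' processing notes; the counting tool, annotation and any filter are not given in the sources used here. Symbols and exon lengths came from GENCODE M21 (GRCm38, the same build), for 15522 of 15736 genes. Of 24 columns 22 matched a sample title. The sample titles name 4 litters for the 12-hour exposure, but the 2 titles of litter 4 match no column. The other 2 columns match no title and were not used. This left 3 litters in the 12-hour exposure, where the plan had assumed 4.

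Library totals were 18.7 to 28.2 M counts. Counts per M counts (CPM) used edgeR's TMM scaling. Each exposure was fitted alone in edgeR 4.0.16 (R 4.3.3) with filterByExpr, 2 group means and the quasi-likelihood test, with Benjamini-Hochberg adjustment over all genes. Log2 fold changes are R2b against con, and SEs come from the F statistic. Differences of effects used 6 group means over all libraries. The code was tested on simulated data. A p-value sets the difference of the groups against a spread. Without the block this is the spread of pools within a group, with the pools of a litter taken as independent. With the block it is the spread left after each litter's own level is removed.

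Litter numbers come from the sample titles; per the labels both pools of a number come from 1 female. The correlation over genes of a litter's pools, as deviations from the group means, was -0.12, -0.24 and -0.26 in the 12-hour exposure. The early 24-hour litters gave 0.42, 0.49, 0.77 and 0.75, and the late ones -0.11, 0.39, 0.31 and 0.29. In the 12-hour exposure the values do not show the pairing, which rests on the labels.

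The rule for naming genes covered all members, called genes of each other list (the 5 lowest FDRs for the pathway list, 3 for others), and the 3 genes most like each member by Pearson's r (log2 CPM with prior count 2, mean of at least 1). Some called genes are given as counts or sums without names, such as those of the FGF readout and hindbrain lists. The members and lists were chosen with earlier results of these data known. A gene of the pathway list is not reported here and is left out of the list's counts. Alternatives were the litter block, DESeq2 1.42.0, size factors, the filter, all libraries in one fit, and leaving out litters or libraries.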

Additional observations from a re-analysis of the deposited data

Results flagged for a closer look

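In 36 groups of 4 libraries looked at for the 9 genes, 4 had 1 library that stood apart from the other three by Dixon's criterion; chance gives about 1 in 20 such groups. All 4 were in the early 24-hour exposure. Dll1 was highest in litter 3 of both groups (34.9 CPM for con, 30.9 CPM for R2b). Lfng was highest in con litter 3, at 291 CPM. Hes1 was lowest in R2b litter 1, at 16.9 CPM.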

How the results depend on the processing

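The number of the 9 genes called was 6 in the 12-hour exposure, and 0 to 8 when 1 litter or library was left out, in fits that called 1.79% to 30.5% of all genes. In the early 24-hour exposure it was 3, and 5 with the replicate block (40.6% of all genes). It was 1 with all libraries in one fit (2082 of 15688 genes), and 0 to 6 with 1 litter or library left out (2.15% to 41.2% of all genes). In the late exposure it was 0, and 0 to 1 with 1 litter or library left out (0.00% to 4.04%), and 2 without litters 1 and 3 under the block. No difference of effects was called, and 0 to 1 with litters left out, the 1 in fits that called 1062 and 1899 of 15718 genes. Beyond the calls named in the report, the replicate block changed none of the 9 genes. No call changed sign. Signs changed only for uncalled values. With 1 litter or library left out, the log2 fold change of Hey1 spanned -0.075 to 0.041 in the 12-hour exposure, -0.076 to 0.050 in the early 24-hour exposure and -0.095 to 0.10 in the late exposure. In the late exposure that of Notch1 spanned -0.042 to 0.15, of Lfng -0.17 to 0.75, of Hes6 -0.031 to 0.13 and of Hey2 -0.15 to 0.14; without litters 1 and 3 these 4 were higher still, at 0.21, 0.90, 0.15 and 0.20 (with the block 0.21, 0.82, 0.15 and 0.19). Hey1 was at 0.0017 in the early 24-hour exposure with a mean CPM of at least 1. In the late exposure Hey1 was at -0.0032 without the filter, -0.0031 with all libraries in one fit, and -0.019 and -0.031 without litters 1 and 3, without and with the block. Hey2 there was at -0.019 with the block and -7.5e-05 with all libraries in one fit. For the early 24-hour exposure minus the 12-hour exposure, the difference spanned -0.25 to 0.24 for Lfng and -0.026 to 0.049 for Hey1. For the late exposure minus the early 24-hour exposure it spanned -0.21 to 0.13 for Dll1, -0.11 to 0.14 for Hes1, -0.14 to 0.018 for Hes6 and -0.071 to 0.10 for Hey1. Dll1 was also at 0.0039 with size factors, 0.0052 in DESeq2 and 0.0011 with the libraries of the compared exposures alone. The cause of these changes was not tested. With 3 or 4 litters a group, the spread between litters limits the precision, not the depth.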
